A study of Mus musculus with 73 samples.

Results

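Expression of 8 genes that describe epithelial and mesenchymal tumour cells was followed through 73 mouse mammary tumours: the cadherins Cdh1, Cdh2, Cdh3, Cdh6 and Cdh11, the epithelial adhesion gene Epcam, the intermediate filament gene Vim and the calcium-binding protein gene S100a4. They were taken by symbol from a count table of 39438 gene symbols, and all 8 were present. The tumours were 9 sarcomatoid tumours, 9 carcinosarcomas and 3 adenocarcinomas with the Brca1 variant p.L1363P, 3 carcinosarcomas and 5 adenocarcinomas of the KP model, 10 adenocarcinomas titled KB1PM, 11 titled KB1P and 23 titled KB2P. The genotype labels read KB1(L1363P)P, KP, KB1P for both KB1P and KB1PM titles, and KB2P. The labels do not explain the title KB1PM and give neither age nor treatment. In the established KP, KB1P and KB2P models, Cre driven by a keratin promoter deletes p53 in epithelial cells, alone (KP) or with Brca1 (KB1P) or Brca2 (KB2P), so that stromal cells keep the floxed alleles, and all models share the loss of p53. Each tumour also carries a labelled epithelial percentage, which was 100 in the adenocarcinomas and 0 in the sarcomatoid tumours. It ran between 2 and 98 in the L1363P carcinosarcomas and between 80 and 90 in the KP carcinosarcomas.

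Classical cadherins join neighbouring cells through calcium-dependent contacts and are tied to actin by catenins. E-cadherin, encoded by Cdh1, holds mammary epithelium together, and P-cadherin, encoded by Cdh3, is typical of basal mammary cells. In epithelial-mesenchymal transition, E-cadherin gives way to N-cadherin (Cdh2) and often to the mesenchymal cadherin of Cdh11, a change known as the cadherin switch, while vimentin (Vim) and S100a4, also called fibroblast-specific protein, are gained. Vim and S100a4 are also active in fibroblasts, endothelium and leukocytes, so a piece of tumour measures tumour cells and stroma together. Transcription factors such as Zeb1, Snai1 and Twist1 bind E-box sequences and repress epithelial genes.

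The genes lie on separate chromosomes except for 3 cadherins of chromosome 8 (GRCm38): Cdh3 at chr8:106510891-106557297 and Cdh1 at chr8:106603351-106670246, both on the plus strand, and Cdh11 at chr8:102632095-102785642 on the minus strand. RefSeq promoter sequences of build GRCm38.p6 were matched for 4 of the 8 genes. The 250 bases before the start of Epcam, which was lower in sarcomatoid tumours, and of Vim and S100a4, which were higher there in at least one comparison, are shown because these genes moved in opposite directions. They lie at chr17:87635729-87635978 for Epcam, at chr2:13574061-13574310 for Vim and at chr3:90603520-90603769 for S100a4, each on the plus strand. Both strands were searched. Capitals mark the E-box, spelled CAGGTG or, when it lies on the other strand, CACCTG, and the TATA box, spelled TATAAA or, when it lies on the other strand, TTTATA. These are motifs that were chosen after the sequences were seen.
Epcam: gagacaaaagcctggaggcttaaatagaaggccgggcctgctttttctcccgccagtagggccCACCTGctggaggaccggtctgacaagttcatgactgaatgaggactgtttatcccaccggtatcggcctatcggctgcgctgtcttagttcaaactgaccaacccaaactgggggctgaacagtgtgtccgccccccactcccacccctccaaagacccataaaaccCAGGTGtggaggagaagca
Vim: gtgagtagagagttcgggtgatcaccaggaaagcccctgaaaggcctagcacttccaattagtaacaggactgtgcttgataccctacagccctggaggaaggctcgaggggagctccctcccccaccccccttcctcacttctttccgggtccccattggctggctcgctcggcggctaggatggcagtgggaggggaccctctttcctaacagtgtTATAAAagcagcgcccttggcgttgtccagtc
S100a4: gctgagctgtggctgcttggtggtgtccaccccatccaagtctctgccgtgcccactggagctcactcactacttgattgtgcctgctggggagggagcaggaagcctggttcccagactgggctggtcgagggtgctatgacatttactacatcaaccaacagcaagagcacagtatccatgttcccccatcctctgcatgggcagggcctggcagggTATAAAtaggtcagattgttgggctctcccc
The Epcam window held 2 E-boxes, whose first bases lay 187 and 19 bases before the start. Of 32851 RefSeq promoter windows of the same length, 17.2% held at least 1 such E-box and 2.06% held 2 or more. Vim and S100a4 each held 1 TATA box, 32 and 31 bases before the start, against 12.4% of all windows. The Cdh6 window, at chr15:13173676-13173925 on the minus strand, held neither motif. Cdh1, Cdh2, Cdh3 and Cdh11 were the other members.

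Total counts ran between 7325180 and 31615237 per tumour. Run 5625, as the first field of the library names was read, holds the L1363P and KP tumours, 29 in number, and the KB1P, KB1PM and KB2P tumours were spread over 8 other runs. Levels are given as CPM, counts relative to library size after scaling by trimmed means. The annotation also places the gene Gm42674 on the strand of S100a4 across the same bases. The count table had no row of that symbol, so S100a4 counts are uncertain by what both share. In the epithelial genes, 5 tumours that lay low in their groups were singled out. KP adenocarcinoma 90.01A, labelled 100% epithelial, had Epcam at 1.75 CPM, and L1363P carcinosarcomas 17 and 4, labelled 5% and 2% epithelial, had it at 0.951 and 1.67 CPM. KB2P adenocarcinoma 30 had Cdh1 at 2.66 CPM and KB1PM adenocarcinoma 8 had it at 42.1 CPM. Calls that changed when these tumours were left out are given with and without them. The 5 tumours were set apart by levels of the members themselves, so a call gained without them is no separate support. Leaving out KB1PM tumour 8 with KB2P tumour 30 was chosen after the data were seen. KB1P adenocarcinoma 1, with Epcam at 50.4 CPM where the next lowest of its group had 206, was not among the 5. Tumours 54.1 and 54.2 share a number, and their counts differed by more than sampling noise (chi-square per gene 92.6, against a lowest value of 30.6 over 441 pairs of libraries of 1 group). This does not tell whether both came from the same animal, which the labels do not say, and they are counted as separate tumours.

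Per kilobase of exon, which allows levels of different genes to be compared, the medians over 73 tumours were 247 CPM per kb for Epcam, 155 for Vim, 84.7 for Cdh1, 35.8 for S100a4, 20.7 for Cdh3, 2.41 for Cdh11, 1.88 for Cdh2 and 0.062 for Cdh6. Epcam and Cdh1 were thus the most abundant adhesion genes in a typical tumour, and Cdh3 was the most abundant of the other cadherins. Among the genes with no count of 0, Epcam had the widest range, with its highest CPM 1781 times its lowest, whereas Vim ranged over 19.3 times. Counts of Cdh2, Cdh1 and Epcam were at least 9, 29 and 12 in every tumour. Cdh6 had no count in 6 tumours, where 3 counts, the most that a count of 0 allows, would be 0.16 to 0.313 CPM. Such limits cover counting error only.

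**Figure D1:**
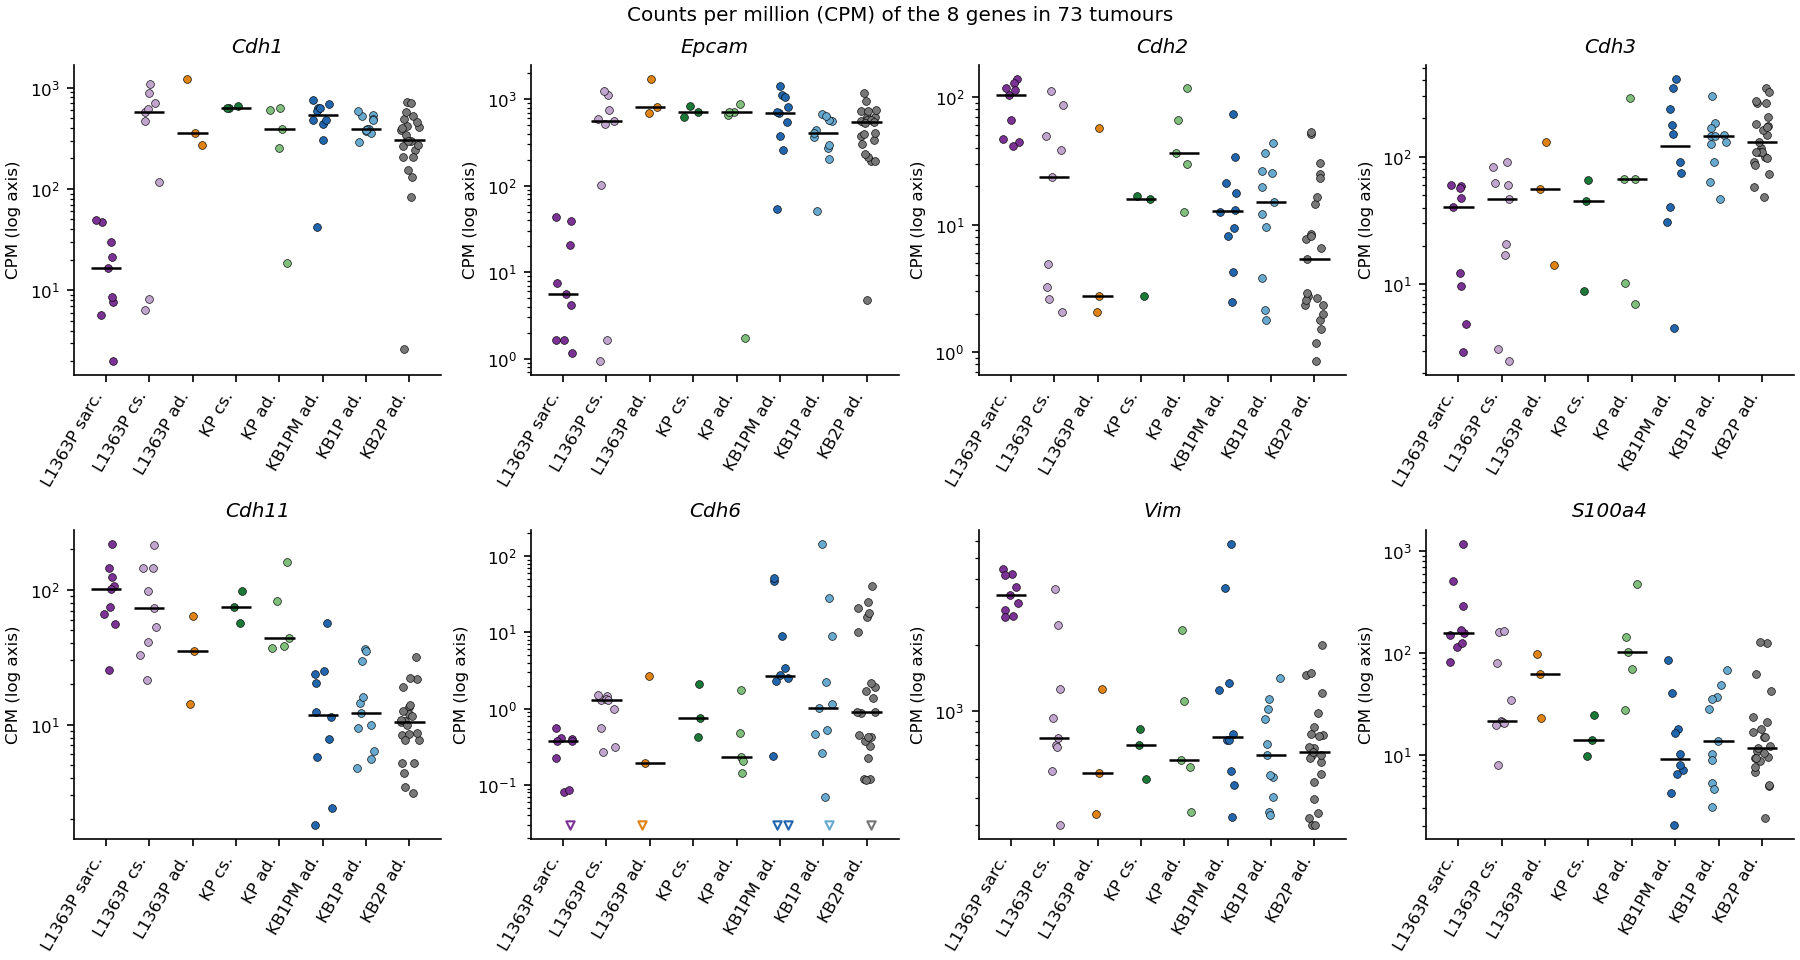
Level of each of the 8 genes in every tumour (points) in CPM on a log axis, with the group median as a bar; sarc., cs. and ad. stand for sarcomatoid, carcinosarcoma and adenocarcinoma, and open triangles mark Cdh6 counts of 0 placed at the foot of its axis. The 9 sarcomatoid tumours lie at 2.02 to 48.9 CPM for Cdh1 and at 2695 to 4477 CPM for Vim.

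Sarcomatoid L1363P tumours were set against L1363P adenocarcinomas to ask how far the adhesion programme differs between the histologies of one genotype. They had far less Cdh1 and Epcam, and more Vim. Cdh1 lay between 2.02 and 48.9 CPM with a median of 16.5 in the 9 sarcomatoid tumours, against 359, 272 and 1209 CPM in adenocarcinomas 7.2, 26.2 and 52. Every sarcomatoid tumour was below every adenocarcinoma. The log2 fold change of Cdh1 was -4.95 (SE 0.94, edgeR quasi-likelihood test, Benjamini-Hochberg adjusted p = 0.000593). Leaving out each adenocarcinoma in turn gave -5.31 to -3.98 for Cdh1, the weakest value without tumour 52, and -6.57 to -5.82 for Epcam, and both stayed called.

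Epcam, which encodes a homophilic adhesion protein of epithelial membranes, ran between 1.16 and 43.3 CPM with a median of 5.6 in sarcomatoid tumours, against 813, 692 and 1694 CPM in adenocarcinomas 7.2, 26.2 and 52. The groups did not overlap, and the log2 fold change was -6.34 (SE 1.23, adjusted p = 0.000702 by edgeR). Vim, which builds the filaments of mesenchymal cells, ran between 2695 and 4477 CPM with a median of 3390 in sarcomatoid tumours, against 522, 337 and 1261 CPM in adenocarcinomas 7.2, 26.2 and 52. All 9 sarcomatoid tumours were above all 3 adenocarcinomas, and the log2 fold change was 2.24 (SE 0.62, edgeR adjusted p = 0.00939). This call of Vim rests on the few adenocarcinomas: the adjusted p was 0.0517 without adenocarcinoma 7.2 and 0.0739 without 26.2.

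The other 5 genes did not pass by edgeR. DESeq2 also called S100a4 (log2 fold change 2.3, adjusted p = 0.0173) and Cdh11 (1.41, 0.0478), and limma on the deposited values also called Cdh2 (3.5, 0.0216). Cdh2 ran between 41.6 and 138 CPM with a median of 104 in sarcomatoid tumours, against 57.4, 2.05 and 2.77 CPM in adenocarcinomas 7.2, 26.2 and 52. Adenocarcinoma 7.2 alone overlapped the sarcomatoid range, and the log2 fold change of 2.07 (SE 1.11) had an edgeR adjusted p of 0.157. Without that tumour it was 5.11 with an adjusted p of 0.0166. For the remaining 4 genes the log2 fold changes were 1.39 for Cdh11 (adjusted p = 0.1 by edgeR), 2.27 for S100a4 (0.0799), -1.12 for Cdh3 (0.387) and -1.81 for Cdh6 (0.11). Cdh6 was called without adenocarcinoma 7.2 (-2.41, 0.0384), but it was 1.41 and not called without adenocarcinoma 52. S100a4 was called, at 2.31 (edgeR adjusted p = 0.0316), when tumours 17, 4 and 90.01A of other groups were left out of the fit. In all, 1 gene was higher and 2 were lower among the 8 tested, beside 30.6% of 16147 genes tested in this comparison, so the share of called members was close to that of all genes. The median log2 fold change was 0.13 over the 8 genes and -0.09 over all genes tested.

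Sarcomatoid tumours were also set against the 9 L1363P carcinosarcomas, tumours that mix epithelial and sarcoma-like areas. Cdh1 ran between 6.34 and 1082 CPM with a median of 576 in the carcinosarcomas, and Epcam ran between 0.951 and 1226 CPM with a median of 556. The low ends belonged to tumours 17 and 4, which lay inside the sarcomatoid range for Cdh1 and inside or just below it for Epcam. Cdh1 was lower in sarcomatoid tumours by a log2 fold change of -4.65 (SE 0.83, edgeR adjusted p = 0.000746) and Epcam by -5.36 (SE 1.09, adjusted p = 0.00152 by edgeR). Vim was higher, at 3489 ± 685 CPM in sarcomatoid tumours and 1248 ± 1090 CPM in carcinosarcomas (SD, n = 9 each), with a log2 fold change of 1.47 (SE 0.39, edgeR adjusted p = 0.0103). S100a4 ran between 82.5 and 1191 CPM with a median of 157 in sarcomatoid tumours, against 8 to 164 CPM with a median of 21.5 in carcinosarcomas. The ranges overlapped only through tumours 17 (164 CPM) and 4 (161 CPM), and the log2 fold change was 2.39 (SE 0.63, edgeR adjusted p = 0.0103). Thus 2 of 8 genes were higher and 2 lower, beside 21.5% of all genes. Without tumours 17 and 4 and KP tumour 90.01A, the log2 fold change was 2.23 for Vim (adjusted p = 3.54e-06 by edgeR) and 3.38 for S100a4 (0.000133). Leaving out the carcinosarcomas that lay nearest the sarcomatoid tumours widens the difference by selection, so these values are no added support.

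The cadherins other than Cdh1 did not pass this comparison by edgeR. The log2 fold changes were 1.3 for Cdh2 (edgeR adjusted p = 0.181), 0.14 for Cdh11 (0.84), -0.43 for Cdh3 (0.697) and -1.86 for Cdh6 (0.0501). DESeq2 called Cdh6 (-1.89, 0.0246), and limma called Cdh2 (2.4, 0.0355). Without the same 3 tumours, Cdh2 rose by 2.29 on the log2 scale (adjusted p = 0.019 by edgeR) and Cdh6 fell by 2.04 (0.0283). The same selection enters into these 2 values. Cdh11 was abundant in both groups, at 102 ± 57.7 CPM in sarcomatoid tumours and 91.5 ± 64.6 CPM in carcinosarcomas (SD, n = 9 each).

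Between L1363P carcinosarcomas and L1363P adenocarcinomas, edgeR called 0 of the 8 genes, beside 2.7% of all genes. None had an unadjusted p under 0.05, and DESeq2 and limma also called 0. The log2 fold changes were -0.3 for Cdh1, 0.77 for Cdh2, -0.69 for Cdh3, 0.05 for Cdh6, 1.25 for Cdh11, -0.97 for Epcam, 0.77 for Vim and -0.12 for S100a4, with SE between 0.57 for Vim and 1.21 for Epcam. With 3 adenocarcinomas these errors leave room for differences of the size of the estimates. The plot of log2 fold changes sets these 3 comparisons side by side.

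**Figure D2:**
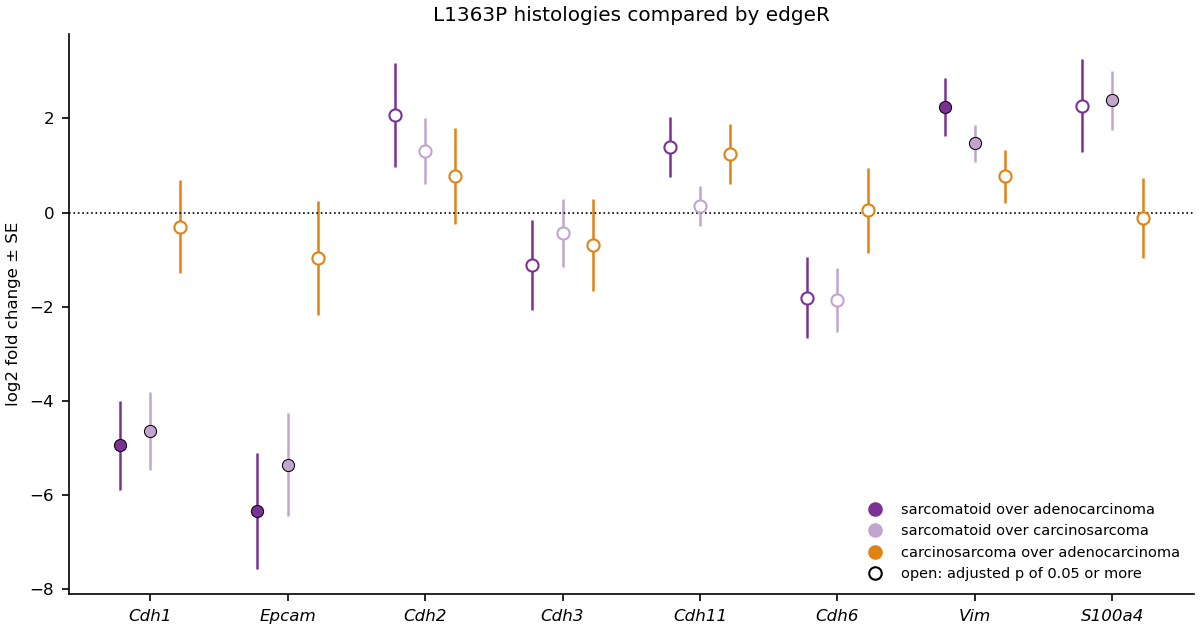
Log2 fold changes with SE of the 8 genes (horizontal axis) in 3 comparisons of L1363P histologies by edgeR; filled points have an adjusted p under 0.05. Cdh1 and Epcam lie at -4.65 to -6.34 in both comparisons of sarcomatoid tumours and at -0.3 and -0.97 between carcinosarcoma and adenocarcinoma.

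Markers of some other cell types moved with these differences. Others did so less or not: against L1363P adenocarcinomas, 1 of 8 pericyte and smooth muscle markers was called higher and 2 lower. Of 6 T cell markers 0 were higher and 1 was lower, and of 5 adipocyte markers 0 were higher and 1 was lower. The summed CPM of 10 epithelial markers, such as Krt8 and Cldn3, was 68.6 to 882 in sarcomatoid tumours, 604 to 3233 in carcinosarcomas and 2477 to 7613 in adenocarcinomas of L1363P genotype, and 8 of 10 were called lower in sarcomatoid tumours against each of the others. The 9 fibroblast markers summed to 12949 to 33552 CPM in sarcomatoid tumours and 2371 to 4447 CPM in L1363P adenocarcinomas. Of these 9, 4 were called higher, including Col1a1 and Dcn, and 0 lower. The collagen genes Col1a1, Col1a2 and Col3a1 weighed most in the sum, averaging 7089, 8754 and 6366 CPM in sarcomatoid tumours. Pi16 and Dpt averaged 14.6 and 37.5 CPM there, against 11.9 and 23.6 CPM in L1363P adenocarcinomas. Of all genes, 30.6% were called against adenocarcinomas and 21.5% against carcinosarcomas. The 9 macrophage markers summed to 4182 to 8005 CPM in sarcomatoid tumours and 718 to 1494 CPM in L1363P adenocarcinomas, and 8 of 9 were called higher, including Mrc1 and Csf1r. No epithelial, fibroblast or macrophage marker was at 0 in all tumours of a group. Vim and S100a4 can come from such cells, and the part of these cell types in the differences was not tested. In bulk tumours, fewer cells of a type and less RNA per cell cannot be told apart.

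Genes that work with the 8 were read from lists, in the same edgeR fits of L1363P tumours. Beside the counts of these lists stand 30.6% of all genes called against adenocarcinomas and 21.5% against carcinosarcomas. Among 14 transcription factors and splicing regulators of the transition, 7 were lower and 4 higher in sarcomatoid tumours than in adenocarcinomas. This list mixes keepers of epithelial identity with repressors of epithelial genes. Its median log2 fold change, -2.02 against -0.09 over all genes, thus depends on how many of each were listed. The lower ones were led by Ovol2, Elf3 and Grhl2, which maintain epithelial identity, and by Esrp1, an epithelial splicing regulator, with log2 fold changes of -7.13, -6.37, -6.07 and -6.04. The 4 higher ones, named here after their values were seen, were the repressors of epithelial genes Twist1 (3.53), Snai1 (3.21), Zeb1 (2.94) and Zeb2 (2.62). Snai2, another repressor of this family, had -0.41 and an edgeR adjusted p of 0.746. Zeb1 averaged 167 ± 44.2 CPM in sarcomatoid tumours (SD, n = 9) and 20.9 ± 12.9 CPM in L1363P adenocarcinomas (SD, n = 3). Against carcinosarcomas, 7 were lower and 3 higher. The lower ones were led by the same 4 genes, Ovol2 (-6.02), Elf3 (-5.68), Esrp1 (-5.62) and Grhl2 (-5.5). The higher ones were Zeb1 (1.32), Zeb2 (1.15) and Twist2 (2.74), also named after their values were seen, whereas Twist1 had 0.64 with an adjusted p of 0.172 by edgeR. The Twist2 call rested on sarcomatoid tumour 10, with 61.4 CPM where the next had 6. Without that tumour its log2 fold change was 1.15 (SE 0.57, edgeR adjusted p = 0.146). Zeb1 also lost its call without its highest tumour, 29 (1.25, edgeR adjusted p = 0.0671). Between carcinosarcomas and adenocarcinomas, 1 of the 14 was called, Twist1, with a log2 fold change of 2.89 (SE 0.58, edgeR adjusted p = 0.00789).

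Of 7 partners of Epcam, 5 were lower in sarcomatoid tumours than in adenocarcinomas and none was higher, with a median log2 fold change of -4.93. They included Cldn7 (-6.09), a claudin that binds Epcam, St14 (-5.75), the protease matriptase, and its inhibitors Spint1 (-4.93) and, named after its value was seen, Spint2 (-4.71). Against carcinosarcomas 4 of the 7 were lower, Cldn7 (-5.23), St14 (-4.89), Spint1 (-4.56) and Spint2 (-4.28). Cldn7 averaged 2.65 ± 3.27 CPM in sarcomatoid tumours (SD, n = 9), against 173 ± 88.5 CPM in L1363P adenocarcinomas (SD, n = 3). Of 15 catenins, nectins and other junction partners tested, 4 were lower and 1 higher, a share close to the 30.6% of all genes. The lower ones were Plekha7 (-4.05), Cttnbp2 (-3.77), Nectin4 (-3.36) and Jup (-2.79), which encodes plakoglobin, the catenin shared with desmosomes. Cttnbp2 was not called without adenocarcinoma 7.2 (-1.92, edgeR adjusted p = 0.36), which had 69.7 CPM where the next had 8.95. The higher one, named after its value was seen, was Vcl (1.15), which encodes the actin linker vinculin. The median of this list was -0.61. Against carcinosarcomas, 5 junction partners were lower and 2 higher, with Cttnbp2 at -7.49, Plekha7 at -2.64, Jup at -2.45 and Nectin4 at -2.22. Cttnbp2 was at 1.2 to 3.91 CPM in sarcomatoid tumours and spread between 1.04 and 1960 CPM in carcinosarcomas, so the ranges overlapped. Without carcinosarcoma 54.1, the highest, its value was -6.34 (edgeR adjusted p = 0.00137).

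Other cadherins went in both directions. Of 16 listed, 9 passed the filter on low counts, and sarcomatoid tumours had 3 of these higher and 3 lower than adenocarcinomas had. Cdh5, the cadherin of endothelium, averaged 170 ± 67.9 CPM in sarcomatoid tumours (SD, n = 9) and 57 ± 20.9 CPM in adenocarcinomas (SD, n = 3), with a log2 fold change of 1.51 (SE 0.38, edgeR adjusted p = 0.00479). It moved with the endothelial markers, of which it is one and of which 7 of 8 were higher. Their sum was 351 to 957 CPM in sarcomatoid tumours and 122 to 262 CPM in L1363P adenocarcinomas. Cdh13 was also higher (1.59), as was the scarce Cdh17 (4.55). The lower ones were the scarce Cdh19 (-6.29) and, named after their values were seen, Cdh4 (-6.55) and Cdh15 (-4.26). Cdh19 rested on adenocarcinoma 52, with 25 CPM where the next had 1.23, and it was -2.51 (edgeR adjusted p = 0.184) without that tumour. Cdh15 was -3.12 (edgeR adjusted p = 0.0548) without the same tumour, and Cdh4 stayed called without its highest adenocarcinoma (-5.42). Against carcinosarcomas, Cdh19 (-5.12) and, named after its value was seen, Cdh4 (-3.56) were lower, and Cdh5 was higher (0.72), though not without sarcomatoid tumour 29 (0.53, edgeR adjusted p = 0.101). Among 13 further S100 genes, 3 were higher and 3 lower, with S100a14 at -6.2, S100b at -3.03 and S100a16 at -1.51, and with S100a9, a gene of neutrophils, at 3.55. S100a14 stayed called without its highest adenocarcinoma (-4.72). S100b did not without adenocarcinoma 26.2 (-0.66, edgeR adjusted p = 0.673), S100a16 without 52 (-0.36, 0.549) or S100a9 without sarcomatoid tumour 43 (3.31, 0.0668). S100a10 (1.12) and S100a5, named after their values were seen, were the other higher ones. S100a5 was scarce, at 0.689 ± 0.611 CPM in sarcomatoid tumours (SD, n = 9) and at 0 in all 3 L1363P adenocarcinomas, so no fold is given. Among 10 further intermediate filament genes, 1 was higher, Sync (3.08), and 2 were lower, Ina (-5.27, or -4 without its highest adenocarcinoma) and Gfap (-2.36), both named after their values were seen, again a share close to that of all genes. Of 7 genes of cadherin shedding, 1 was higher, the membrane protease gene Mmp14 (1.93, SE 0.43, adjusted p = 0.00194 by edgeR). Against carcinosarcomas, S100b (-2.9, or -2.27 without its highest carcinosarcoma), Synm (-1.3) and, named after their values were seen, Gfap (-3.18) were lower, and Mmp14 (0.91) and the scarce S100a5 were higher. Between carcinosarcomas and adenocarcinomas the called genes of these lists were Twist1 and, named after their values were seen, S100a14 (-4.59) and Cdh4 (-2.99). The last 2 were not called without the highest adenocarcinoma of each (edgeR adjusted p = 0.13 for S100a14 and 0.492 for Cdh4).

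The cadherin switch was followed in each tumour as the log2 ratio of Cdh2 to Cdh1 per kilobase, with 0.1 added to both levels. In bulk tumours this ratio cannot tell a change within cells from a change in the mix of cells. Cdh2 exceeded Cdh1 in 13 of 73 tumours. These were all 9 sarcomatoid tumours, 2 of 9 L1363P carcinosarcomas, 1 of 5 KP adenocarcinomas and 1 of 23 KB2P adenocarcinomas. In sarcomatoid tumours the log2 ratio ran between 0.32 and 4.59 with a median of 1.4. The medians of the other groups were -5.07 in L1363P carcinosarcomas, -7.4 in L1363P adenocarcinomas, -6.06 in KP carcinosarcomas, -4.21 in KP adenocarcinomas, -6.31 in KB1PM, -5.73 in KB1P and -6.77 in KB2P adenocarcinomas. The lowest value above 0 was 0.32 and the highest value below 0 was -0.02, in KB1PM tumour 8. With the longest transcript as gene length instead of the union of exons, 14 tumours were above 0. In the same 13 tumours Cdh11 also exceeded Cdh1.

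Both cadherins entered into the ratio. The median of Cdh1 was 3.6 CPM per kb in sarcomatoid tumours, 126 in L1363P carcinosarcomas and 78.5 in L1363P adenocarcinomas. The median of Cdh2 was 12.9 CPM per kb in sarcomatoid tumours, 2.94 in L1363P carcinosarcomas and 0.344 in L1363P adenocarcinomas. The Cdh2 of a typical sarcomatoid tumour thus stayed far below the Cdh1 of a typical adenocarcinoma, per kilobase, and of the 2 genes Cdh1 alone was called in both comparisons. Cdh3 exceeded Cdh1 in 7 of 9 sarcomatoid tumours, 2 of 9 L1363P carcinosarcomas, 1 of 5 KP, 2 of 10 KB1PM, 0 of 11 KB1P and 3 of 23 KB2P adenocarcinomas. In sarcomatoid tumours Cdh3 spread between 2.92 and 60.2 CPM, so that some tumours with Cdh2 above Cdh1 had P-cadherin transcript and others had little. Vim exceeded Epcam per kilobase in all 9 sarcomatoid tumours, with log2 ratios between 4.84 and 10.45, and in none of the 3 L1363P adenocarcinomas, with ratios between -2.15 and -1.54. It also did so in 4 of 9 L1363P carcinosarcomas, none of 3 KP carcinosarcomas, 1 of 5 KP, 3 of 10 KB1PM, 3 of 11 KB1P and 9 of 23 KB2P adenocarcinomas, 29 tumours in all. This count depends on the gene length taken. For Vim the union of exons is 4743 bases and the longest transcript 2926, and for Epcam they are 2195 and 2040. The longest transcript would raise each ratio of Vim to Epcam, and the count with it was not made.

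**Figure D3:**
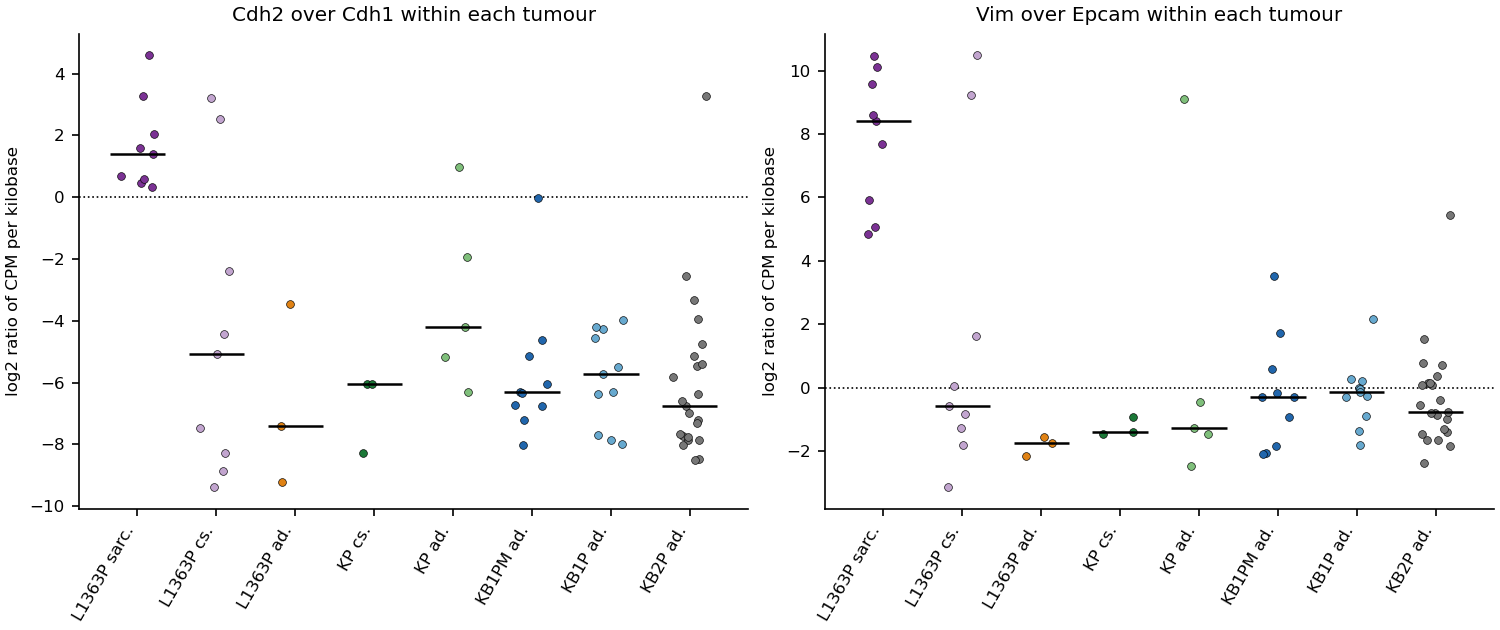
Log2 ratio per kilobase of Cdh2 over Cdh1 (left) and of Vim over Epcam (right) in each tumour (points), with group medians as bars and equality as a dotted line. All 9 sarcomatoid tumours lie above 0 in both panels, joined by 4 tumours of other groups on the left and by 20 on the right.

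Tumours with little Cdh1 differed in the rest of the programme. L1363P carcinosarcomas 17 and 4 had 6.34 and 8.13 CPM of Cdh1, 111 and 86.8 CPM of Cdh2, 213 and 146 CPM of Cdh11 and 3623 and 2461 CPM of Vim. KP adenocarcinoma 90.01A had 18.7 CPM of Cdh1, 65.7 of Cdh2, 38.5 of Cdh11, 2338 of Vim and 479 of S100a4. These 3 tumours lay in the sarcomatoid range for Cdh1, Cdh2, Cdh11 and S100a4, and tumour 17 also for Vim. Their fibroblast marker sums, 27111, 13231 and 26124 CPM for tumours 17, 4 and 90.01A, lay in the sarcomatoid range as well. KB2P adenocarcinoma 30 had 2.66 CPM of Cdh1 and 4.81 CPM of Epcam, with 53.2 CPM of Cdh2, but Vim at 471, S100a4 at 2.41 and Cdh11 at 12 CPM, and it kept Cdh3 at 97.7 CPM. Its sums of 770 CPM for fibroblast and 153 CPM for epithelial markers were the lowest of its group, and its macrophage sum was 636 CPM. KB1PM adenocarcinoma 8 had 42.1 CPM of Cdh1, 53.9 of Epcam, 73.1 of Cdh2, 178 of Cdh3 and 1345 of Vim, but only 2.39 of Cdh11 and 4.26 of S100a4. KB1PM adenocarcinomas 11 and 6 had the highest Vim outside the sarcomatoid group, 5821 and 3663 CPM, beside 692 and 594 CPM of Cdh1. Low Cdh1 and high Vim were thus found apart from each other in single tumours.

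**Figure D4:**
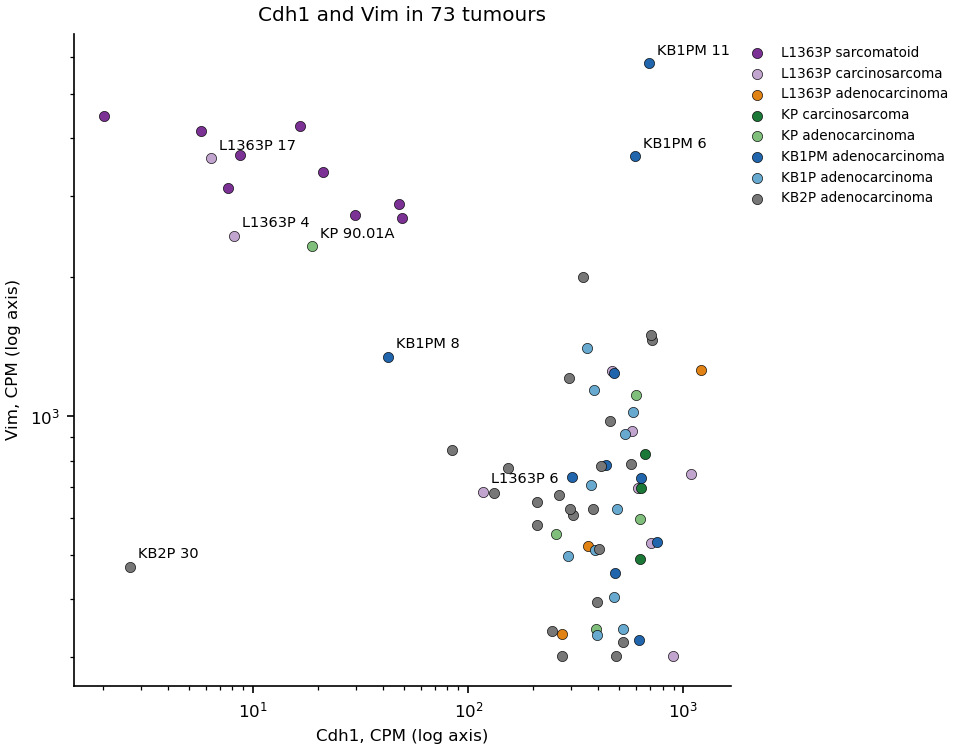
Cdh1 (horizontal) and Vim (vertical) in CPM on log axes, 1 point per tumour, coloured by group, with tumours named in the text labelled. Sarcomatoid tumours fill the upper left, KB2P tumour 30 lies at the lower left with 2.66 CPM of Cdh1 and 471 CPM of Vim, and KB1PM tumours 11 and 6 lie at the upper right.

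Within the 9 L1363P carcinosarcomas, levels were fitted against the labelled epithelial percentage. Vim and S100a4 were lower the more epithelium was labelled. In order of percentage (2, 5, 40, 75, 85, 85, 90, 95 and 98), Vim had 2461, 3623, 1255, 926, 699, 301, 748, 685 and 531 CPM. S100a4 had 161, 164, 80.7, 21.5, 21.2, 20.7, 19.8, 34.8 and 8 CPM in the same order. Both genes were highest in the 2 tumours with the least epithelium and intermediate in the one labelled 40%. The log2 change per 10 percentage points was -0.25 for Vim (SE 0.04, edgeR adjusted p = 0.00971) and -0.34 for S100a4 (SE 0.05, adjusted p = 0.00562 by edgeR), so that 2 of 8 genes were lower, beside 8.34% of 14645 genes tested. Without tumours 17 and 4 the slopes were -0.2 for Vim and -0.36 for S100a4, but none of the 8 was called and 0 of all genes were, with adjusted p of 0.873 and 0.869. The calls therefore rest on these tumours.

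The epithelial genes followed the label less evenly. Cdh1 had 8.13, 6.34, 466, 576, 613, 891, 1082, 117 and 709 CPM in the same order of percentage, and Epcam had 1.67, 0.951, 556, 758, 1130, 1226, 518, 101 and 595 CPM. Tumour 18, labelled 40%, already reached 466 CPM of Cdh1, while tumour 6, labelled 95%, had 117 CPM. The slopes were 0.55 for Cdh1 (SE 0.2, edgeR adjusted p = 0.112) and 0.58 for Epcam (SE 0.29, 0.24), and neither passed. DESeq2 called both, with slopes of 0.55 (adjusted p = 9.64e-05) and 0.59 (0.00944), and so did limma, with slopes of 0.64 (0.016) and 0.88 (0.017). Without tumours 17 and 4 the Epcam slope was -0.03. For Cdh11 and Cdh2 the slopes were -0.18 (edgeR adjusted p = 0.112) and -0.26 (0.215), of which DESeq2 called Cdh11 (0.0418), and for Cdh3 and Cdh6 they were -0.06 and 0.12. Of 9 macrophage markers 8 were lower with more labelled epithelium, of 9 fibroblast markers 2 were and of 6 T cell markers 3 were. Of 8 pericyte and smooth muscle markers 3 were higher. Beside these stand 8.34% of all genes. Since 0 of all genes were called without tumours 17 and 4, these calls rest on those tumours as well. The part of these cell types in the slopes of Vim and S100a4 was not tested.

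**Figure D5:**
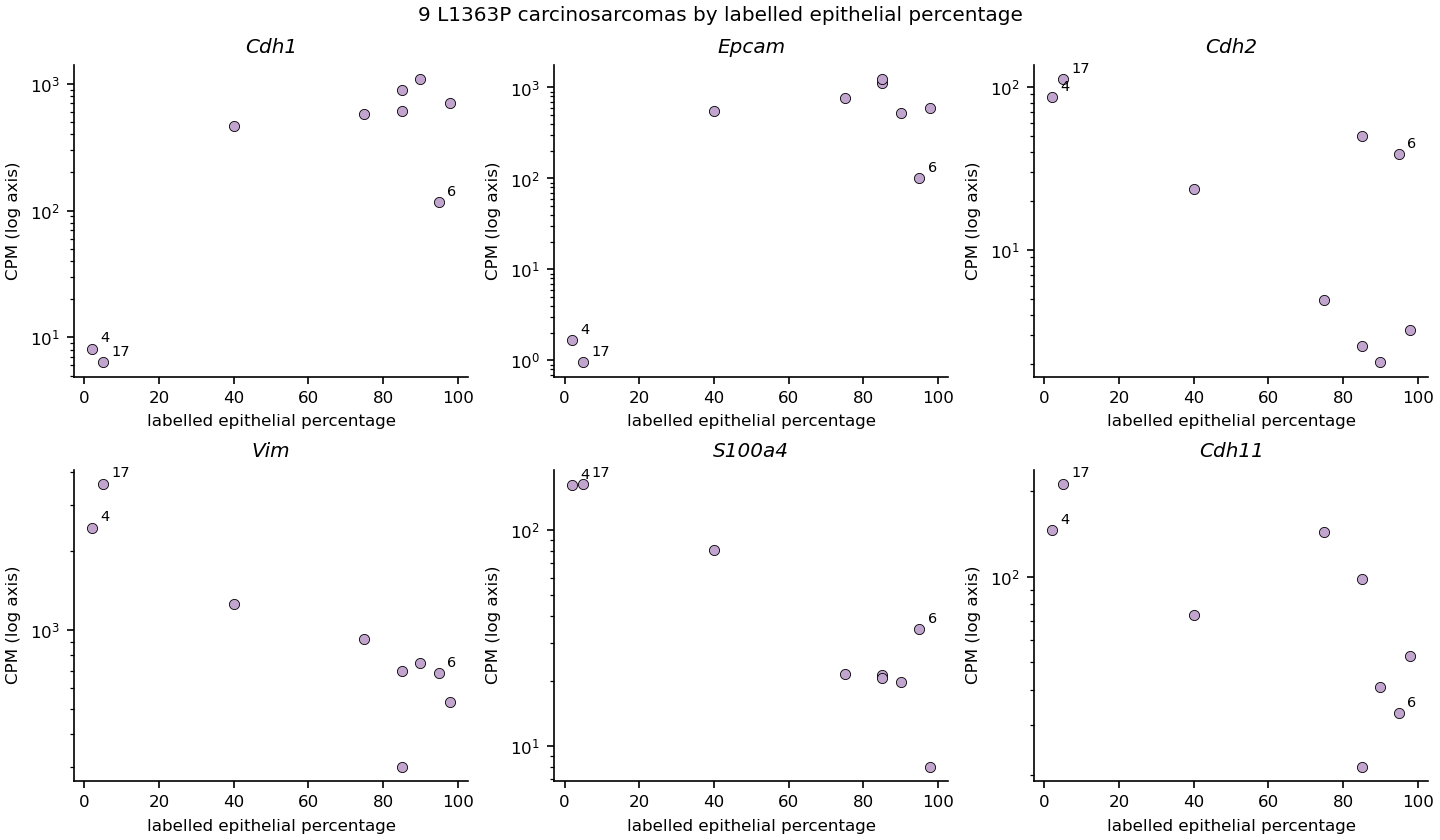
Level in CPM on a log axis of 6 genes in the 9 L1363P carcinosarcomas against the labelled epithelial percentage, with tumours 4, 17 and 6 named. Tumours 4 and 17, at 2% and 5%, carry the lowest Cdh1 and Epcam and the highest Vim and S100a4, and tumour 6, at 95%, lies low in Cdh1 and Epcam.

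In the KP model, carcinosarcomas were set against adenocarcinomas. EdgeR called 0 of 8 genes and 0 of all genes (0%), with 1926 genes at an unadjusted p under 0.05. DESeq2 called 184 genes and limma 2. S100a4 had 9.84, 25 and 13.9 CPM in carcinosarcomas 26.02A, 5 and 130.10A, against 143, 27.4, 102, 479 and 69.9 CPM in adenocarcinomas 39, 40, 89.01A, 90.01A and 131.03A. Every carcinosarcoma was below every adenocarcinoma, and the log2 fold change was -3.29 (SE 1.09), with an adjusted p of 0.343 by edgeR and 0.029 by DESeq2. Without tumour 90.01A it was -2.42. S100a4 was the only member with an unadjusted p under 0.05, and limma called none of the 8. Cdh1 was nearly the same in the 3 KP carcinosarcomas, at 642 ± 17.9 CPM (SD, n = 3), against 379 ± 253 CPM in KP adenocarcinomas (SD, n = 5). Cdh2 and Cdh3 had log2 fold changes of -2.16 and -1.17, neither called (edgeR adjusted p = 0.463 and 0.708). The other values were 0.74 for Cdh1, 0.93 for Cdh6, 0.27 for Epcam, 0.07 for Cdh11 and -0.52 for Vim.

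L1363P tumours were compared with KP tumours of the same histology, within run 5625. Of the 8 genes edgeR called 0 between adenocarcinomas, beside 0.211% of all genes, and 0 between carcinosarcomas, where 0% of all genes were called and 741 had an unadjusted p under 0.05. DESeq2 and limma called 0 members in both, and no member had an unadjusted p under 0.05. Between carcinosarcomas DESeq2 called 6 genes and limma 2. Cdh2 had a log2 fold change of -1.38 (SE 1.13) and S100a4 of -1.36 (SE 0.98) between adenocarcinomas, and 1.55 (SE 1.08) and 1.81 (SE 0.96) between carcinosarcomas. The other log2 fold changes between adenocarcinomas were 0.68 for Cdh1, -0.42 for Cdh3, 0.74 for Cdh6, -0.96 for Cdh11, 0.82 for Epcam and -0.44 for Vim. Between carcinosarcomas they were -0.37 for Cdh1, 0.07 for Cdh3, -0.14 for Cdh6, 0.22 for Cdh11, -0.42 for Epcam and 0.85 for Vim. Whether the step between carcinosarcoma and adenocarcinoma differed between L1363P and KP was tested as an interaction, in which 0 of 8 genes and 0.0124% of all genes were called by edgeR, and 0 members by DESeq2 and limma. The largest member value was 3.17 for S100a4 (SE 1.37, edgeR adjusted p = 0.285), the only member with an unadjusted p under 0.05. The others were 2.93 for Cdh2, 1.29 for Vim, 1.18 for Cdh11, 0.48 for Cdh3, -0.88 for Cdh6, -1.04 for Cdh1 and -1.24 for Epcam. Without tumours 17, 4 and 90.01A the value was 1.34 for S100a4 and 1.89 for Cdh2.

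Adenocarcinomas of L1363P and KP genotype were sequenced in another run than KB1P and KB2P tumours, so genotype and run cannot be told apart in the comparisons between them. Cdh11 stood out there. It had 64.2, 14.1 and 35.1 CPM in L1363P adenocarcinomas 7.2, 26.2 and 52, then 161, 83.1, 37, 38.5 and 44.2 CPM in KP adenocarcinomas 39, 40, 89.01A, 90.01A and 131.03A, and 3.1 to 31.5 CPM with a median of 10.5 in the 23 KB2P adenocarcinomas. Of the L1363P tumours 2 of 3, and all 5 KP tumours, lay above every KB2P tumour. The log2 fold change was 1.67 for L1363P over KB2P (SE 0.52, edgeR adjusted p = 0.0294) and 2.62 for KP over KB2P (SE 0.42, adjusted p = 9.1e-07 by edgeR). The L1363P call was lost without tumour 7.2 (1.08, adjusted p = 0.373), without tumour 52 (1.72, 0.0947), with limma (1.63, 0.115) and against KB2P run 2749 alone (1.63, 0.0851). Without KP tumour 39, the highest of its group, the KP value was 2.11 and stayed called.

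KP adenocarcinomas also had more S100a4 than KB2P adenocarcinomas, at 164 ± 181 CPM (SD, n = 5) against 25.2 ± 35 CPM (SD, n = 23), with a log2 fold change of 2.62 (SE 0.6, edgeR adjusted p = 0.000478), or 1.78 (0.0395) without KP tumour 90.01A. Cdh2 averaged 52.6 ± 41.5 CPM in KP tumours (SD, n = 5) and 11.8 ± 15.2 CPM in KB2P tumours (SD, n = 23), with a log2 fold change of 2.11 (SE 0.66, adjusted p = 0.00983 by edgeR). Without KP tumour 89.01A, which had 118 CPM, the Cdh2 value was 1.56 and the adjusted p 0.0897, and against KB2P run 2749 alone it was 1.77 (0.0569). Of the genes not called, Cdh6 had -3.44 (edgeR adjusted p = 0.0728, and 0.00832 by DESeq2), Cdh3 had -0.87, Vim 0.3, Epcam 0.2 and Cdh1 0.11. Cdh3 was called lower in KP tumours by limma (-1.86, 0.0413) and by edgeR without KP tumour 89.01A (-2.09, 0.0273), which had 292 CPM of Cdh3. In this comparison 3 of 8 genes were higher, beside 35.3% of 18492 genes tested, so the share was close to that of all genes. Against KB2P, the L1363P adenocarcinomas had 1 gene higher of 8, beside 9.1% of all genes. The other values were 1.25 for S100a4, 1.04 for Epcam, 0.8 for Cdh1, 0.75 for Cdh2, -0.15 for Vim, -1.28 for Cdh3 and -2.71 for Cdh6.

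Against KB1P tumours (KB1P and KB1PM titles weighted equally), KP adenocarcinomas had more Cdh11 and S100a4 and less Cdh6, 3 of 8 genes beside 27.3% of all genes. Cdh11 averaged 72.8 ± 53 CPM in KP tumours (SD, n = 5) and 16.5 ± 13.8 CPM in KB1P and KB1PM tumours (SD, n = 21), with a log2 fold change of 2.11 (SE 0.43, edgeR adjusted p = 0.000142). S100a4 had a log2 fold change of 2.85 (SE 0.61, adjusted p = 0.000282 by edgeR), and 3 of 5 KP tumours lay above all 21. Without tumour 90.01A the value of S100a4 was 1.99 (edgeR adjusted p = 0.0293). Cdh2 was not called, at 1.48 (SE 0.69, edgeR adjusted p = 0.102), but it was at 1.73 (0.0432) without KB1PM tumour 8 and KB2P tumour 30. Cdh3 had -0.75 and was called at -1.96 (edgeR adjusted p = 0.0452) without KP tumour 89.01A. Cdh1, Epcam and Vim had -0.32, 0.15 and -0.16. L1363P adenocarcinomas against KB1P gave 0 called genes of 8 by edgeR, DESeq2 and limma, beside 5% of all genes, and Cdh11 alone had an unadjusted p under 0.05 (log2 fold change 1.16, adjusted p = 0.251 by edgeR). The other values were 1.47 for S100a4, 0.98 for Epcam, 0.37 for Cdh1, 0.12 for Cdh2, -0.61 for Vim, -1.15 for Cdh3 and -3.86 for Cdh6. Fibroblast, macrophage and endothelial marker sums moved with Cdh11 and S100a4. Those of fibroblasts were 2371 to 4447 CPM in L1363P and 4042 to 26124 CPM in KP adenocarcinomas, with medians of 3276 in L1363P and 9338 in KP tumours, against medians of 1854 in KB1PM, 1846 in KB1P and 1462 in KB2P adenocarcinomas. Macrophage medians were 1317 CPM in L1363P and 1914 in KP tumours, against 674 in KB1PM, 637 in KB1P and 583 in KB2P tumours. Endothelial medians were 223 CPM in L1363P and 608 in KP tumours, against 168 in KB1PM, 159 in KB1P and 160 in KB2P tumours. Adipocyte medians were also higher, at 177 CPM in L1363P and 83.2 in KP tumours, against 16, 19.5 and 26 in KB1PM, KB1P and KB2P tumours. Pericyte and smooth muscle medians were not, at 569 and 739 CPM in L1363P and KP tumours, against 715, 780 and 969 in KB1PM, KB1P and KB2P tumours. The part of these cell types in the differences was not tested.

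Cdh6, the cadherin of kidney and early neural tissue, was nearly silent in most tumours and high in a few. It was above 10 CPM in 10 of 73 tumours, none of them in run 5625, where the highest value was 2.71 CPM. The highest levels were 146 CPM in KB1P tumour 12, 50.9 in KB1PM tumour 4, 46.8 in KB1PM tumour 2 and 40.9 in KB2P tumour 13. Levels in KP adenocarcinomas were 0.145 to 1.75 CPM, against 0 to 50.9 CPM in KB1PM and 0 to 146 CPM in KB1P adenocarcinomas. The log2 fold change of KP over KB1P was -4.59 (SE 1.65, edgeR adjusted p = 0.0307), but the KB1P ranges enclosed the KP range, and the adjusted p was above 0.05 without tumour 89.01A, 90.01A, 39 or 40 (0.0656, 0.0778, 0.0755 and 0.07), with limma (log2 fold change -2.04, adjusted p = 0.254) and in a fit of the compared groups alone (-4.62, 0.0806).

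Between KB1P and KB2P adenocarcinomas, no difference was called in the 8 genes. EdgeR, DESeq2 and limma each called 0 of 8, none had an unadjusted p under 0.05, and 13.2% of all genes were called. The SE of the log2 fold changes lay between 0.27 for Vim and 0.72 for Cdh6, whose log2 fold change of 1.15 was the highest (adjusted p = 0.306 by edgeR). Cdh2 had 0.63, Cdh11 0.51, Vim 0.46, Cdh1 0.43, Epcam 0.05, Cdh3 -0.12 and S100a4 -0.23. Cdh1 averaged 468 ± 159 CPM in KB1P and KB1PM tumours (SD, n = 21) and 342 ± 182 CPM in KB2P tumours (SD, n = 23), and Epcam averaged 548 ± 347 CPM in KB1P and KB1PM tumours and 503 ± 268 CPM in KB2P tumours. Outside the 8, Ina had a log2 fold change of -3.09, Synm of 1.21, Sync of 0.99 and Vcl of 0.58, and each stayed called by edgeR without its highest tumour. Cdh19 (3.98), Nefl (2.99) and S100a9 (2.06) were called through 1 tumour each. Cdh19 was 1.67 (edgeR adjusted p = 0.106) without KB1PM tumour 6, which had 103 CPM where the next KB1P or KB1PM tumour had 13.8. Nefl was 0.19 (edgeR adjusted p = 0.92) without KB1P tumour 9, and S100a9 was 0.47 (0.655) without KB1PM tumour 2. The called genes below the level set for naming were Cdh20 and Ctnna3, and neither stayed called without its highest tumour. KB1PM against KB1P titles gave 0 of 8 by all 3 tools, beside 0.887% of all genes. Vim, with a log2 fold change of 1.12 (SE 0.39, adjusted p = 0.167 by edgeR), was the only one with an unadjusted p under 0.05, and the other values ran from -0.51 for Cdh6 to 0.79 for Epcam, with -0.26 for S100a4, 0.03 for Cdh11, 0.11 for Cdh2, 0.12 for Cdh3 and 0.19 for Cdh1. As a measure of the difference between runs, KB2P tumours of run 2749 against those of run 2459 gave 0 of 8 by all 3 tools, beside 1.01% of 17148 genes tested. There, too, Vim alone had an unadjusted p under 0.05, at 593 ± 231 CPM in run 2749 (SD, n = 12) and 1004 ± 560 CPM in run 2459 (SD, n = 9). The log2 fold changes were -1.13 for S100a4, -0.72 for Vim, -0.42 for Cdh1, -0.2 for Cdh6, -0.15 for Epcam, 0.09 for Cdh3, 0.25 for Cdh11 and 0.75 for Cdh2.

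By group medians, Cdh1 was highest in KP carcinosarcomas (632 CPM), then in L1363P carcinosarcomas, KB1PM, KB1P, KP, L1363P and KB2P adenocarcinomas (306 CPM), and far lower in sarcomatoid tumours (16.5 CPM). Cdh2 was highest in sarcomatoid tumours (104 CPM), then in KP adenocarcinomas (36.5 CPM), and lowest in L1363P adenocarcinomas (2.77 CPM). Cdh3 had medians of 145, 131 and 121 CPM in KB1P, KB2P and KB1PM adenocarcinomas and 40.7 CPM in sarcomatoid tumours. Cdh11 medians were 102, 74.1, 73.5, 44.2 and 35.1 CPM in the 5 groups of run 5625 (sarcomatoid tumours, KP carcinosarcomas, L1363P carcinosarcomas, KP adenocarcinomas and L1363P adenocarcinomas) and 10.5 to 12.2 CPM in the others. Of 56 neighbouring pairs of groups in these orders, over all 8 genes, 55 overlapped in range. Neighbours by median are the pairs most apt to overlap, and the share over all genes was not computed, so this count does not mark out these genes. The exception was Epcam, where every sarcomatoid tumour (1.16 to 43.3 CPM) lay below every KB1P tumour (50.4 to 676 CPM).

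The genes whose log2 CPM followed each member most closely over the 29 tumours of run 5625 were listed by Pearson's r, as a description over tumours that share histologies. Cdh1 was followed by Dsg2 (0.986), a desmosomal cadherin, Marveld3 (0.986), a tight junction gene, and Elf3 (0.979). Epcam was followed by Esrp1 (0.994), Rab25 (0.99) and Cldn7 (0.988). The nearest genes to Vim were Adprh (0.954), Dhrs9 (0.94) and Lrrk2 (0.935). Those to Cdh2 were Fzd8 (0.909), a Wnt receptor gene, Hdgfl3 (0.901) and Dpysl3 (0.883), and those to S100a4 were Jdp2 (0.852), Glud1 (0.847) and Rhof (0.838). The best values were lower for Cdh3 (Tcea3, 0.781), Cdh6 (Ikbkb, 0.771) and Cdh11 (Tenm3, 0.77). Likeness was thus closest for the 2 epithelial genes and weaker for the cadherins other than Cdh1 and Cdh2.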

How the data were processed

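Polyadenylated RNA of 73 tumours was sequenced, 1 library per tumour, and the authors deposited gene counts. Per the submitters' processing notes, their tools were featureCounts 2.0.0, STAR 2.7.3a and cutadapt 2.10, with DESeq, on mm10. Strand settings of the counting were not given in the sources used here. The deposited count table held 39438 symbols, and the deposited table of log2 normalized values held 37148, of which 36113 occur in both.

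Members and lists were chosen with earlier results of these data known. Counts were tested with edgeR 4.0.16 in R 4.3.3 (filterByExpr at 10 counts, trimmed-mean scaling, quasi-likelihood F test, Benjamini-Hochberg adjustment over all genes tested, threshold 0.05). One fit held the 29 libraries of run 5625 and another all 73, in which KB1P is the equal mean of KB1P and KB1PM titles. The slope on epithelial percentage was fitted in the 9 L1363P carcinosarcomas, and the run comparison in the 23 KB2P tumours. The script was tested on simulated data. Since no label names separate animals, each p-value reflects spread between tumours as sampled, which may be technical. Lengths are unions of exons, and 0.1 was added to CPM per kb in ratios. Likeness used a prior count of 2. Alternatives were median-of-ratios scaling, DESeq2 1.42.0, no filter, limma 3.58.1 on the deposited log2 values, fits of the compared groups, tumours left out and a block on title numbers. Leaving out KB1PM tumour 8 with KB2P tumour 30, and the tumour with the highest level of a called list gene, was chosen after seeing the data.

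All 8 members are named in every comparison. From each list, up to 4 called genes were named by size of log2 fold change at a mean log2 CPM of at least 1, for sarcomatoid tumours against each L1363P histology and for KB1P against KB2P. Others are marked where named.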

Additional observations from a re-analysis of the deposited data

Results flagged for a closer look

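Of 32 sets of values of 1 gene in 1 group of 4 to 10 tumours, 8 held a tumour far from the others in CPM. The rule flags about 1 in 20 sets of normally distributed values. CPM need not be so distributed, so the 8 cannot be set against that rate. Sarcomatoid tumour 9.1 had 1191 CPM of S100a4, and the next highest sarcomatoid tumour had 511. Among KP adenocarcinomas, 89.01A had 292 CPM of Cdh3 with the next at 67.1, 131.03A had 1.75 CPM of Cdh6 with the next at 0.477, and 90.01A had 1.75 CPM of Epcam with the nearest at 660 and 479 CPM of S100a4 with the next at 143. Among KB1PM adenocarcinomas, tumour 8 had 73.1 CPM of Cdh2 with the next at 33.7, tumour 2 had 56.9 CPM of Cdh11 with the next at 24.8, and tumour 11 had 86.1 CPM of S100a4 with the next at 40.3. Tumour 90.01A stood apart in both an epithelial and a mesenchymal gene, and its fibroblast and macrophage marker sums of 26124 and 10842 CPM were the highest of its group. Their part in these values was not tested.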

How the results depend on the processing

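Of 1221 alternative values of the 8 genes, 1108 kept direction and side of the threshold, 21 gained a call, 16 lost one and 76 turned round. Every value that turned round was uncalled both ways. Between L1363P carcinosarcomas and adenocarcinomas, leaving out 1 adenocarcinoma gave ranges of -0.55 to 3.27 for Cdh6 (-0.45 without 26.2), -1.17 to 0.29 for Cdh3, -0.67 to 0.67 for Cdh1 and -0.52 to 0.41 for S100a4. In the same comparison Cdh6 was -0.04 without tumour 54.2, and Cdh1 was 0.05 and Cdh2 -0.19 without tumours 17, 4 and 90.01A. Cdh6 in sarcomatoid tumours against adenocarcinomas ran from -2.41 to 1.41 when 1 adenocarcinoma was left out, and Cdh3 in KP carcinosarcomas against KP adenocarcinomas from -1.75 to 0.07 when 1 tumour was. Without tumours 17 and 4, slopes were 0.73 for Cdh3, -0.08 for Cdh6 and -0.03 for Epcam. Of the remaining values that turned round, those between KP histologies ran from -0.16 to 0.58 for Cdh11, -0.05 to 0.49 for Epcam and -0.74 to 0.02 for Vim with 1 tumour left out (-0.1 for Cdh11 without 90.01A), and were -0.09, -0.04 and 0.04 for Cdh11, Epcam and Vim without tumours 17, 4 and 90.01A. For L1363P against KP adenocarcinomas they ran from -0.3 to 1.05 for Cdh1 (0.94 without 40), -1.37 to 0.82 for Cdh3 (0.06 without 52 and -0.72 without 39), -2.48 to 1.85 for Cdh6 (0.55 without 40) and -1.18 to 0.1 for Vim with 1 tumour left out, were 0.23 for Cdh3 and -0.27 for Cdh6 with limma, and 0.14 for Vim without the same 3 tumours. For L1363P against KP carcinosarcomas they ran from -0.41 to 0.64 for Cdh3 and -0.53 to 0.75 for Cdh6, were -0.26 for Cdh3 and -0.07 for Cdh11 with limma, and 0 for Cdh1, -0.23 for Cdh3, 0.1 for Cdh6 and -0.2 for Cdh11 without those 3. For the interaction they ran from -0.75 to 1.44 for Cdh3 and -2 to 2.34 for Cdh6 (0.01 without 130.10A and -1.27 without 5), and were -0.49 and 0.22 for Cdh3 and Cdh6 with limma. For L1363P against KB1P they ran from -0.59 to 0.72 for Cdh1 and -2.94 to 0.66 for Cdh2, which was -0.86 with limma. For L1363P against KB2P they ran from -0.16 to 1.15 for Cdh1, -2.31 to 1.29 for Cdh2 and -0.87 to 0.19 for Vim (0.04 without 7.2), which was 0.22 with KB2P run 2749 alone. For KP against KB1P they ran from -0.55 to 0.01 for Cdh1, -0.07 to 0.48 for Epcam and -0.69 to 0.05 for Vim (0.03 without 40), with -0.97 for Epcam by limma. For KP against KB2P they ran from -0.11 to 0.45 for Cdh1, -0.01 to 0.56 for Epcam and -0.21 to 0.51 for Vim, were -0.18 for Cdh1 and -0.85 for Epcam by limma, and -0.16 for Cdh1 and -0.01 for Vim with run 2459 alone. For KB1P against KB2P, S100a4 was 0.31 with run 2749 alone and Epcam -0.02 with run 2459 alone. For KB1PM against KB1P, limma gave -0.04 for Cdh1, -0.49 for Cdh3, 0.48 for Cdh6 and -0.27 for Cdh11, and Cdh2 was -0.38 without KB1PM tumour 8. Between KB2P runs, Cdh6 was 1.01 by limma. Counts of called members that moved by more than 1.5 times were 5 by DESeq2 in place of 3 for sarcomatoid tumours against adenocarcinomas, 1 by DESeq2 in place of 0 between KP histologies, and 0 in place of 1 for L1363P against KB2P with limma or with KB2P run 2749 alone, and 0 to 1 when 1 L1363P tumour was left out. For the slope they were 5 by DESeq2, 4 by limma and 0 without tumours 17 and 4, in place of 2. Smaller moves in the counts of called members were 5 by DESeq2 and by limma in place of 4 for sarcomatoid tumours against carcinosarcomas, 4 by limma in place of 3 for sarcomatoid tumours against adenocarcinomas, 4 by DESeq2 and by limma in place of 3 for KP against KB2P, and 2 by limma in place of 3 for KP against KB1P. Others came from tumours left out and from fits of fewer tumours. The cause was not tested.

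Title numbers were not taken to pair tumours, since no label ties them to a shared source and not every pair's correlation was over 0.1. Over 5 shared numbers of KB1P and KB2P the correlations of deviations ran from -0.129 to 0.423, with 4 over 0.1 and 4 best with their own number, and over 8 of KB1PM and KB1P from -0.162 to 0.196, with 1 over 0.1 and 0 best with their own, a hint from the data, not the design. With a replicate block, in fits of the tumours that share a number, 0 members were called in both comparisons, and the values that turned round were -0.07 for Epcam and -0.11 for Vim in KB1P against KB2P and -0.09 for Cdh3 and 2.19 for Cdh6 in KB1PM against KB1P. All-gene calls were 16 in place of 2439 for KB1P against KB2P and 1 in place of 164 for KB1PM against KB1P.

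Counts of called genes over all genes moved by more than 1.5 times in the following settings. Sarcomatoid tumours gave 4945 against adenocarcinomas, and 2490 without 26.2. Against carcinosarcomas they gave 3468, and 5994 without tumours 17, 4 and 90.01A. Carcinosarcomas against adenocarcinomas of L1363P gave 436, and 1119 by DESeq2, 212 by limma, 6 in a fit of the compared groups and 91 to 742 with 1 adenocarcinoma left out. KP carcinosarcomas against adenocarcinomas gave 0, and 184, 2 and 2 in the same 3 settings, and 0 to 2 with 1 tumour left out. L1363P against KP adenocarcinomas gave 34, and 468 by DESeq2, 8 without the filter, 0 in a fit of the compared groups, 2 without tumours 17, 4 and 90.01A and 7 to 283 with 1 tumour left out. Between carcinosarcomas of these genotypes the count was 0, and 6 by DESeq2, 2 by limma, 2 without the filter and 0 to 2 with 1 tumour left out. The interaction gave 2, and 387 by DESeq2, 6 by limma, 0 in a fit of the compared groups or without tumours 17, 4 and 90.01A, and 0 to 116 with 1 tumour left out. L1363P against KB1P gave 924, and 505 to 567 with 1 tumour left out. L1363P against KB2P gave 1683, and 924 in a fit of the compared groups and 863 to 963 with 1 tumour left out. KP against KB1P gave 5045, and 3105 without 90.01A. KB1P against KB2P gave 2439, and 1521 in a fit of the compared groups and 1219 with KB2P run 2749 alone. KB1PM against KB1P gave 164, and 334 without the filter, 10 by limma and 2 in a fit of the compared groups. The slope gave 1222, and 2977 by DESeq2, 0 without tumours 17 and 4 and 755 without tumour 54.2. KB2P run 2749 against run 2459 gave 174, and 947 by DESeq2, 85 without the filter, 62 by limma and 98 in a fit of the compared groups.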
